A study of Mus musculus with 12 samples.

Results

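The genes described here are 45 mouse genes for collagens, other extracellular matrix proteins, the enzymes that process and crosslink them, and markers of stromal (mesenchymal) cells, which form connective tissue. They were listed by name, and a gene was measured where a probe set of the array was annotated to it alone. That held for 43 of the 45, out of 22180 genes tested. Fbn1 had no probe set, and those of Loxl2 were shared with Gm21451, so neither is reported. The study used 12 one-colour mouse expression arrays in 4 groups of 3: primary wild-type (WT) macrophages, primary Cd36 knockout (KO) macrophages, and tumour-associated macrophages (TAMs) of each genotype, meaning macrophages kept for 72 h with 5TGM1, a mouse multiple myeloma line. All groups grew in RPMI medium with fetal bovine serum, penicillin and streptomycin. The sources used here do not give how the knockout was made, the tissue the macrophages came from, the age and sex of the mice, the culture time of macrophages alone, or how myeloma cells were removed. The labels do not say that the arrays of a group came from separate mice, so p-values reflect the spread among these arrays alone, and that spread may be technical. Levels are log2 of the deposited intensity, and a difference of 1 is a doubling. A difference was called, and is described as a rise or a fall, where limma's Benjamini-Hochberg adjusted p over all 22180 genes was under 0.05, with n = 3 arrays per group and the standard error (SE) given after the sign ±.

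Collagens are secreted triple-helical chains. Fibrillar collagens give tissue its tensile strength, and type IV collagen, laminins and nidogen build basement membranes. Lysyl oxidases crosslink collagen and elastin, small leucine-rich proteoglycans such as biglycan and decorin bind collagen fibrils, and matricellular proteins such as periostin and tenascin C modulate how cells attach. Most of this matrix is made by fibroblasts and related stromal cells. Macrophages are known more for remodelling and taking up matrix, although they make some components, fibronectin among them.

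Cd36, the targeted gene and a scavenger receptor for lipoproteins and long-chain fatty acids, matched the labels: no WT array read below 12.10 and no KO array above 9.66. A signal remained in KO, where every array read at least 8.45, above the 75th percentile of gene means (7.57). The knockout was 10.5-fold lower than WT in macrophages (-3.39 ± 0.24, adjusted p = 2e-05) and 10.6-fold lower in TAMs (-3.41 ± 0.24, adjusted p = 2.4e-05). Xist, transcribed from the inactive X chromosome, read at least 11.08 in WT and at most 4.35 in KO, and the Y-linked Uty at most 3.91 in WT and at least 9.71 in KO. Genotype and this sex-linked pattern therefore cannot be told apart in any KO against WT difference below. Some arrays stood apart from their group in the matrix genes. The median standard deviation over the 43 genes was 0.14 in WT macrophages and 0.16 in KO macrophages, but 0.62 in WT TAMs and 0.58 in KO TAMs. Over all genes the medians were 0.10, 0.10, 0.14 and 0.14. The second WT TAM array was the highest of all 12 arrays in 36 of the 43 genes, and the first KO TAM array was above the second and the second above the third in 29 of the 43, against 22% of all genes. Counts of calls are therefore also given with single arrays left out, and a call of a described gene that was lost that way is given with the arrays it was lost without.

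The promoters of 6 genes are shown because these genes were lower in KO than in WT macrophages whichever array was left out, and each stands for a class of the set. The sequences are the 150 bases before the annotated start, from RefSeq on GRCm38.p6, 5′ to 3′ on the gene's strand. They are Col1a2 (chr6:4505468-4505617, plus strand), Nid1 (chr13:13437452-13437601, plus), Col6a1 (chr10:76726045-76726194, minus), Sparc (chr11:55420081-55420230, minus), Bgn (chrX:73483451-73483600, plus) and Igfbp7 (chr5:77408046-77408195, minus). Capitals mark matches on either strand to TATAAA (the motif of the TATA box), to CCAAT (bound by NF-Y), to GGGCGG (the core of the GC box that Sp factors bind), to CAGAC (a Smad-binding element) or to the CArG box (bound by serum response factor). Overlapping matches to the same motif are not all marked, as at the end of the Bgn window.

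Col1a2: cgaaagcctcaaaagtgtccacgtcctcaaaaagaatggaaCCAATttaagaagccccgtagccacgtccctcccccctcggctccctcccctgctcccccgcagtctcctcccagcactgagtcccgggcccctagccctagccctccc
Nid1: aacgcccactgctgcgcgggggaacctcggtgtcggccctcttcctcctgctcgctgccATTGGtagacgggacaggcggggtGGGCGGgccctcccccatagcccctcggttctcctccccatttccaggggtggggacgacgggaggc
Col6a1: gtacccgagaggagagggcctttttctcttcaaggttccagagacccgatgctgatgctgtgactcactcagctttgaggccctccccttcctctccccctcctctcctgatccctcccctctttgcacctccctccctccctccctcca
Sparc: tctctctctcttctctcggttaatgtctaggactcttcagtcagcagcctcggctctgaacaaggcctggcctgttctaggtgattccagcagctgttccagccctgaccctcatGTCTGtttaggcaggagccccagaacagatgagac
Bgn: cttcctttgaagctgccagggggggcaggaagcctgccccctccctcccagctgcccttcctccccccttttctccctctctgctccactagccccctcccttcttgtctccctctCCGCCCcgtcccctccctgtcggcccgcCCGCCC
Igfbp7: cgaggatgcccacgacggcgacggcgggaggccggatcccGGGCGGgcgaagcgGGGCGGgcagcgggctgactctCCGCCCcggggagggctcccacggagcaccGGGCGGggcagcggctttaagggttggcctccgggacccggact

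Such a window was at hand for 28 of the 43 genes. In 18, the 6 shown among them, it ended at the annotated start of the gene, and in the others at a different start. The GC box core was present in 14 of the 28 windows, against 28.6% of all 32851 windows of this length, and it occurs here in Nid1, Bgn and Igfbp7. The NF-Y motif was present in 6 windows, Col1a2 and Nid1 among them, against 24.5% of all windows. The Smad-binding element was present in 9 windows, Sparc among them, against 27.7%. The motif TATAAA was in 4 windows (Col3a1, Tnc, Thbs2 and Igfbp4), against 7.57%, and the CArG box in 0, against 0.916%. The TATAAA matches began 117, 126, 126 and 28 bases before the start used, in that order of genes. Whether any of them acts as a TATA box was not tested. Motifs can share bases at their ends, and a match only describes the bases of this window.

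The matrix genes formed a graded pattern over the 4 groups. In 31 of the 43 the group means ran, from high to low, WT TAM, WT macrophage, KO TAM, KO macrophage. In Col4a1, Lamc1 and Fbln2 the KO TAM mean lay above that of WT macrophages. Exceptions at the top were Mgp and Lox, highest in WT macrophages, and Dcn, Eln, Lum and Thy1, highest in KO TAMs. The sum of the 43 intensities was 13880, 15100 and 13340 on the WT macrophage arrays, 17800, 38610 and 20520 on the WT TAM arrays, 3311, 3220 and 3302 on the KO macrophage arrays, and 11870, 8743 and 4286 on the KO TAM arrays. KO macrophages thus held the lowest sums without overlap with any other group, and WT TAMs the highest. In whole-culture RNA, fewer cells of a type and less RNA per cell cannot be told apart.

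**Figure D1:**
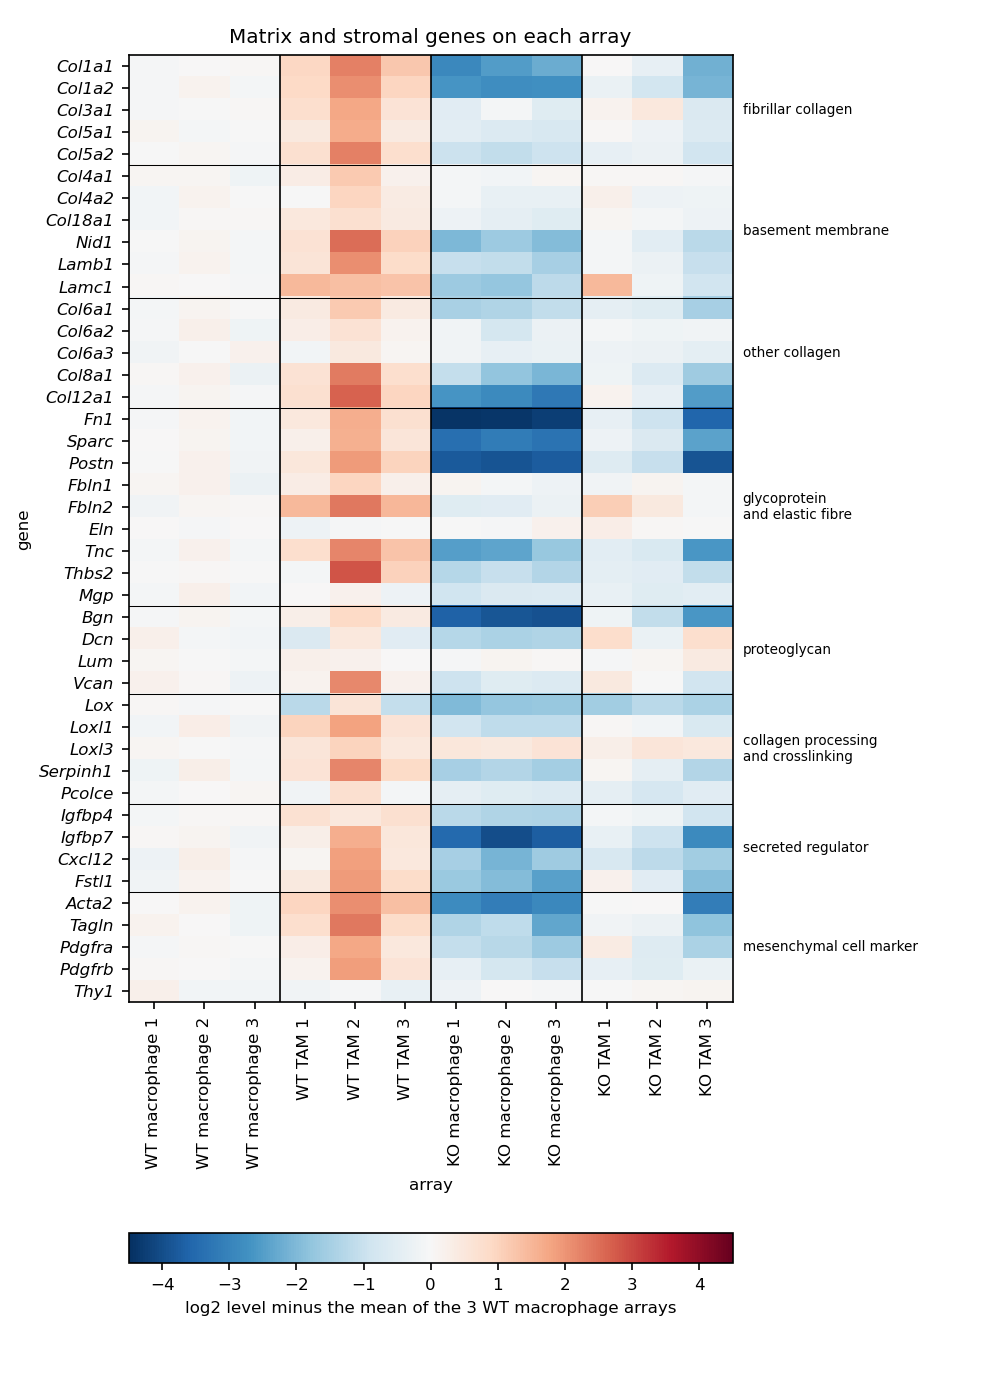
Each row is a gene of the set and each column an array; colour is the log2 level minus the mean of the 3 WT macrophage arrays, with genes ordered by role. The KO macrophage columns are the lowest for most genes, the second WT TAM array is the highest of the 12 in 36 of 43 genes, and the KO TAM columns grade from the first to the third array in 29.

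Cd36 knockout macrophages held less matrix and stromal mRNA than WT macrophages. Of the 43 genes 23 fell and 1, Loxl3, rose; 11.3% of all genes tested were called in this comparison, 6.13% lower and 5.19% higher. The median difference was -1.30 over the set and 0.04 over all genes, and 40 of the 43 differences were below 0. Fibronectin (Fn1) was 20.3-fold lower, periostin (Postn) 14.1-fold, biglycan (Bgn) 14.0-fold, Igfbp7 13.3-fold and Sparc 9.81-fold. Every KO array lay below every WT array in 34 genes (17.7% of all genes) and above in 1 (20.8%). By role the test called 2 of 5 fibrillar collagens, 3 of 6 basement membrane genes, 3 of 5 other collagens, 5 of 9 glycoproteins, 2 of 4 proteoglycans, 3 of 5 processing enzymes, all 4 secreted regulators and 1 of 5 mesenchymal markers lower. Adding 16 to the intensities before the log ended the calls of Lamb1, Lamc1, Col8a1, Loxl1 and Serpinh1 (0.0555 to 0.0837). Leaving out 1 array at a time gave 14 calls (without the second KO macrophage array) to 32 (without the second WT TAM array). The 14 kept throughout were Col1a1, Col1a2, Nid1, Col6a1, Col12a1, Fn1, Sparc, Postn, Mgp, Bgn, Lox, Igfbp4, Igfbp7 and Acta2, all lower.

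In TAMs the knockout was lower as well: 28 of the 43 genes fell and 0 rose, where 12.2% of all genes were called, 7.19% lower and 5.03% higher. At an unadjusted p under 0.05 (25.1% of all genes), 37 were lower and 0 higher. The median difference was -1.37 over the set and 0.02 over all genes. The largest falls were in Postn (7.91-fold), Tnc (6.42-fold), Fn1 (5.99-fold) and Acta2 (5.75-fold). All 5 fibrillar collagens, 3 of 6 basement membrane genes, 3 of 5 other collagens, 6 of 9 glycoproteins, 1 of 4 proteoglycans, 3 of 5 processing enzymes, all 4 regulators and 3 of 5 mesenchymal markers fell. Every KO TAM array was below every WT TAM array in 33 genes (11.8% of all genes), and above in Eln and Thy1 (12.8%). These 28 calls rest on a spread estimated over all 4 groups. A fit with only the 6 TAM arrays called 0 of them, with adjusted p of 0.0507 to 0.182 for the 28 and 34 of the 43 lower at an unadjusted p under 0.05; the count over all genes fell from 2710 to 638. Leaving out 1 array at a time gave 20 calls (without the second WT TAM or the third KO TAM array) to 31 (without the first KO TAM array). Of the 20 without the second WT TAM array, 19 were lower and 1 was higher in KO.

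Some matrix genes were higher in WT macrophages kept with 5TGM1 than in WT macrophages alone. As the culture time of macrophages alone is not given, co-culture and time in culture cannot be told apart in any co-culture difference. In WT TAMs 10 of the 43 genes rose and 0 fell (25 higher and 0 lower at an unadjusted p under 0.05, which 23.5% of all genes reached), where 11.5% of all genes were called, 5.89% higher and 5.66% lower. The median difference was 0.83 over the set and 0.01 over all genes. Fbln2 rose the most (3.44-fold), and Nid1, Col1a2, Col5a2, Lamb1, Loxl1, Col3a1, Loxl3, Igfbp4 and Col18a1 rose 2.64-fold to 1.44-fold. By role these were 3 of 5 fibrillar collagens, 3 of 6 basement membrane genes, 1 of 9 glycoproteins, 2 of 5 processing enzymes and 1 of 4 regulators. Every WT TAM array was above every WT macrophage array in 30 genes (15.5% of all genes). Without the first WT macrophage array 2 calls were left, and without the third KO TAM array there were 19. With a mean-dependent, robust spread in limma 6 were called, the calls of Col1a2, Col3a1, Nid1 and Lamb1 being lost (adjusted p of 0.0591 to 0.0905). Fbln2 and Loxl3 kept their calls whichever array was left out.

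In KO macrophages 8 of the 43 genes rose with co-culture and 0 fell. Of all genes 6.53% were called, 2.9% higher and 3.63% lower. At an unadjusted p under 0.05, which 20.1% of all genes reached, 20 of the 43 were higher and 0 lower. The median difference was 0.75 over the set and -0.01 over all genes. Fn1 rose 6.57-fold, Bgn 5.63-fold, Igfbp7 5.14-fold, Sparc 4.55-fold, Dcn 3.42-fold, Col1a2 3.18-fold, Lamc1 3.14-fold and Igfbp4 1.92-fold. Every KO TAM array was above every KO macrophage array in 17 genes (11.7% of all genes). Bgn, Dcn and Igfbp4 kept their calls whichever array was left out; the counts ran from 3, without any of the KO macrophage arrays or the second KO TAM array, to 18 without the third KO TAM array. With only the 6 KO arrays in the fit, Dcn alone was called and the other 7 had adjusted p of 0.0607 to 0.161, with 24 genes at an unadjusted p under 0.05. With the mean-dependent, robust spread 5 were called, those of Col1a2, Lamc1 and Fn1 being lost (0.0509 to 0.0718).

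Each group enters several of these comparisons, so their values share arrays and are set side by side without a test of likeness. Whether the co-culture difference itself differed between genotypes was tested as the interaction of genotype and co-culture, and limma called 0 of the 43 genes, where 0.194% of all genes were called, 0.104% higher and 0.0902% lower. At an unadjusted p under 0.05, reached by 9.6% of all genes, there were 4 genes: Dcn (2.01 more in KO, adjusted p = 0.106), Bgn (1.98 more in KO, 0.295), Loxl3 (-0.76, 0.147) and Fbln2 (-0.87, 0.511). These counts depended on arrays. Without the second WT TAM array Dcn (adjusted p = 0.0146) and Lox (0.0036) were called, without the second KO TAM array Dcn (0.0219), and without the third KO TAM array Fn1 (0.0155) and Bgn (0.0123). So a co-culture rise called in one genotype and not in the other, as for Fn1, is not shown to differ between them.

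**Figure D2:**
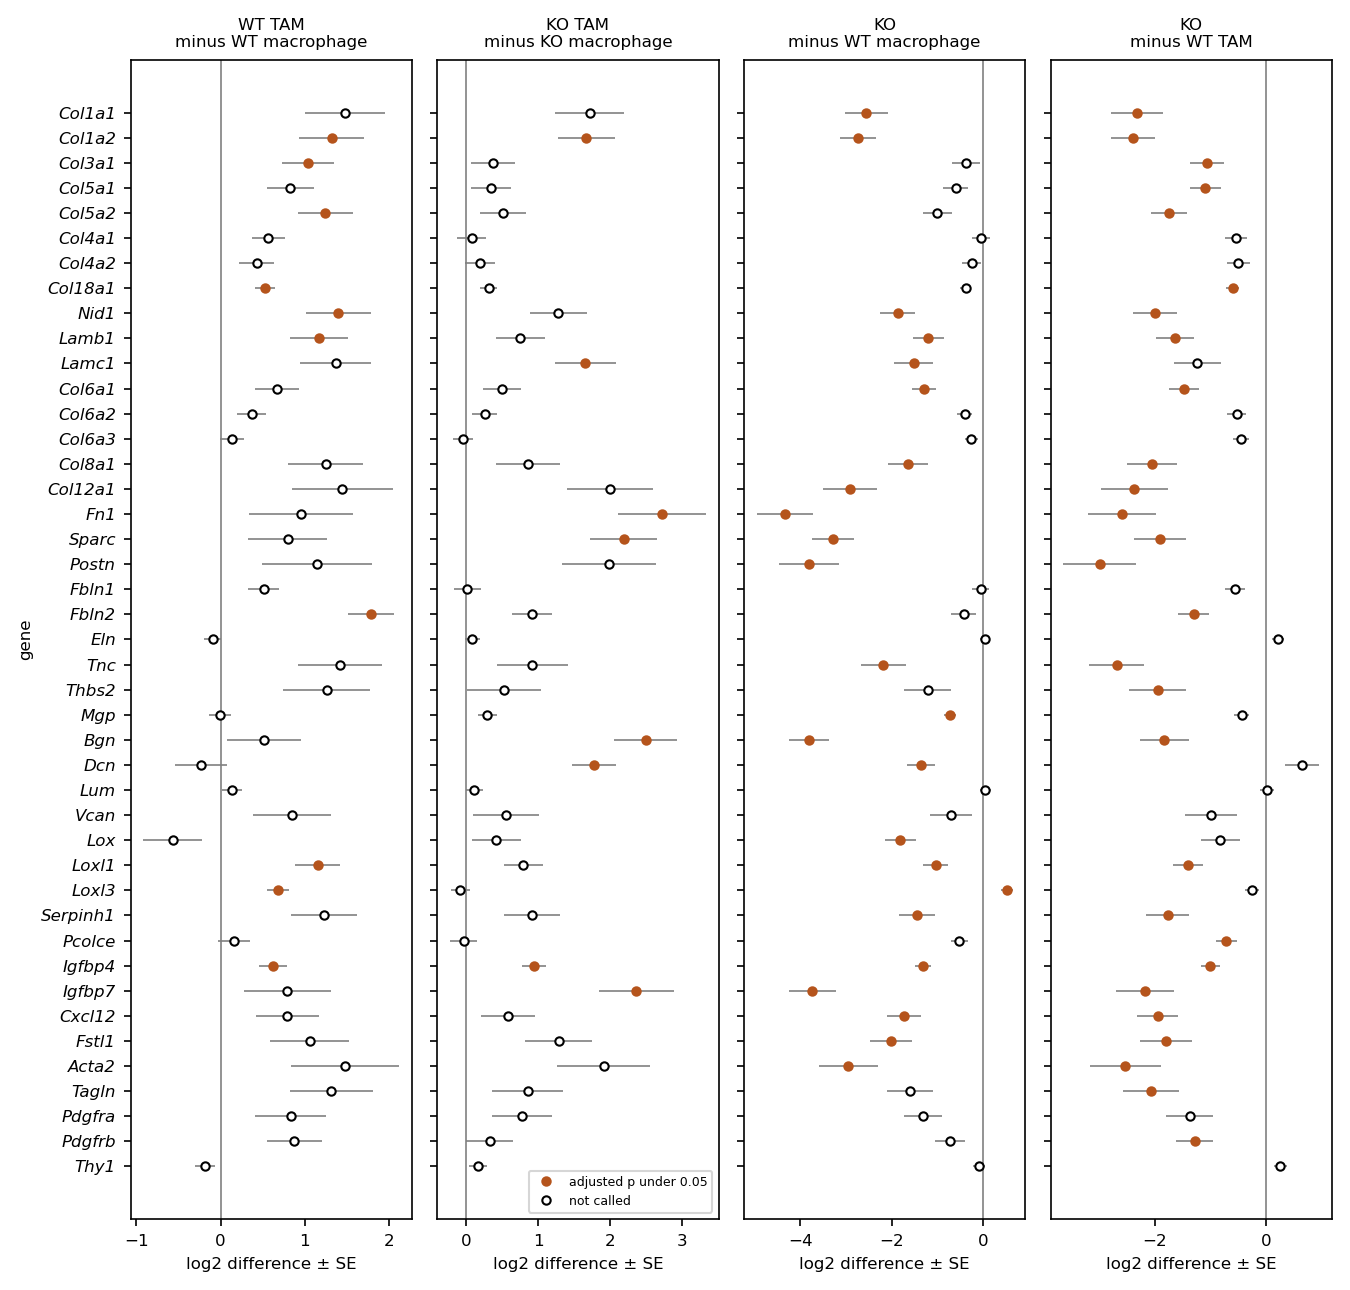
Each panel is a comparison and each point a gene of the set; the axis is the log2 difference, the bar its standard error from limma (n = 3 arrays per group), and filled points are called at an adjusted p under 0.05. In the KO against WT panels 40 of 43 (macrophages) and 39 of 43 (TAMs) points lie below 0, and in the co-culture panels 38 (WT) and 40 (KO) lie above 0.

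**Figure D3:**
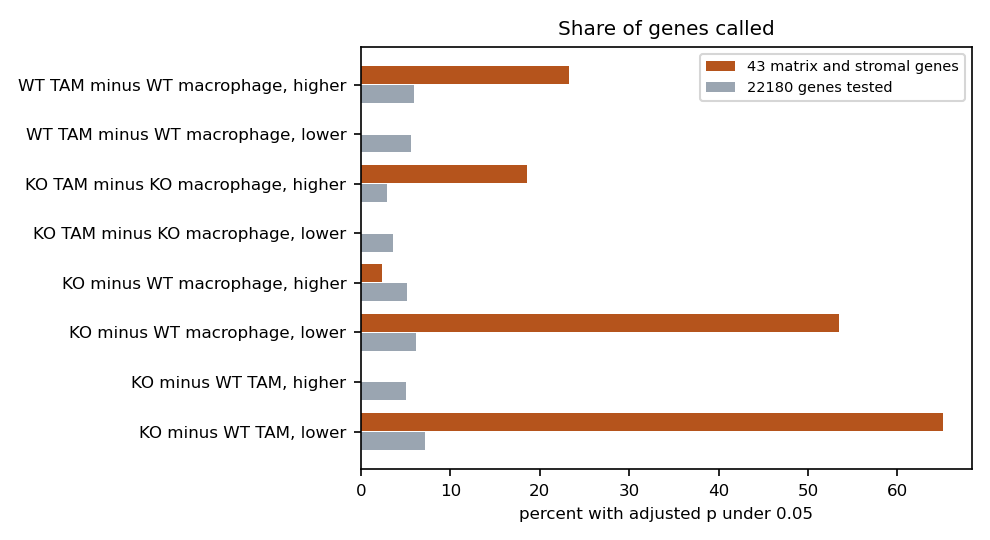
Bars give the percent of genes called higher or lower in each comparison, for the 43 genes of the set and for all 22180 genes tested. The set reached 53.5% lower against 6.13% of all genes for KO against WT macrophages and 65.1% against 7.19% for TAMs.

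Type I collagen, the main collagen of bone, skin and scar, is made of chains from Col1a1 and Col1a2. Col1a1 read 8.54, 8.62 and 8.64 in WT macrophages, 9.51, 10.88 and 9.83 in WT TAMs, 5.69, 6.09 and 6.35 in KO macrophages and 8.60, 8.22 and 6.44 in KO TAMs. WT TAMs lay above every other array, and the KO TAM arrays bridged the gap between KO macrophages and WT macrophages. Col1a1 was 5.88-fold lower in KO than in WT macrophages (-2.56 ± 0.47, adjusted p = 0.0051) and 4.98-fold lower in KO TAMs (-2.32, 0.0079), calls kept without any single array. Its co-culture differences of 1.47 in WT (adjusted p = 0.0691) and 1.71 in KO (0.0532) did not pass. Col1a2 read 8.36, 8.60 and 8.32, then 9.33, 10.51 and 9.39, then 5.77, 5.64 and 5.66, then 8.13, 7.61 and 6.34 in the same order of groups. No KO TAM array reached the WT macrophage range, and all 3 lay above KO macrophages. Col1a2 fell 6.67-fold in KO macrophages (-2.74 ± 0.39, adjusted p = 0.0012) and 5.23-fold in KO TAMs (-2.39, 0.0023), also without any single array. A second, lower-reading probe set gave -1.17 and -1.71. The co-culture rises of Col1a2 were less secure. The WT rise of 1.32 (adjusted p = 0.0491) was lost without any of 10 arrays (0.0563 to 0.151), that is all but the first and the third KO TAM arrays. The KO rise of 1.67 (0.0258) was lost without any KO macrophage array or the first or second KO TAM array (0.0742 to 0.0867). The second probe set gave 1.18 in WT and 0.64 in KO, and with the mean of probe sets the KO call was lost (0.0664).

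Type III collagen (Col3a1) assembles with type I in distensible tissues, and type V chains (Col5a1, Col5a2) regulate fibril diameter. Col3a1 read 5.96, 5.97 and 6.05 in WT macrophages, 6.75, 7.74 and 6.60 in WT TAMs, 5.48, 5.90 and 5.46 in KO macrophages and 6.15, 6.45 and 5.33 in KO TAMs. Its KO TAM arrays straddled the WT macrophages. Col3a1 rose 1.04 ± 0.30 in WT TAMs (adjusted p = 0.0469) and was 1.05 lower in KO than in WT TAMs (0.0421). The first call was lost without any WT or KO macrophage array or the first or second WT TAM array (0.0577 to 0.131), and the second without any macrophage array, the first or second WT TAM array or the third KO TAM array (0.0521 to 0.146). Col5a2 read 6.30, 6.40 and 6.27 in WT macrophages, 7.05, 8.59 and 7.07 in WT TAMs, 5.35, 5.22 and 5.39 in KO macrophages and 5.94, 6.08 and 5.47 in KO TAMs, 4 ranges without overlap. It fell 3.34-fold in KO against WT TAMs (-1.74 ± 0.32, adjusted p = 0.0046) whichever array was left out. Its rise of 1.24 in WT TAMs (0.0272) was lost without any WT macrophage array (0.0682 to 0.0864). Col5a1 was 1.09 ± 0.28 lower in KO than in WT TAMs (adjusted p = 0.0241), a call lost without the second (0.0639) or the third (0.093) KO TAM array, and a second, lower-reading probe set of Col5a1 gave 0.23. Col3a1 and Col5a2 are neighbours on chromosome 1, 24624 bases apart on GRCm38.p6.

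**Figure D4:**
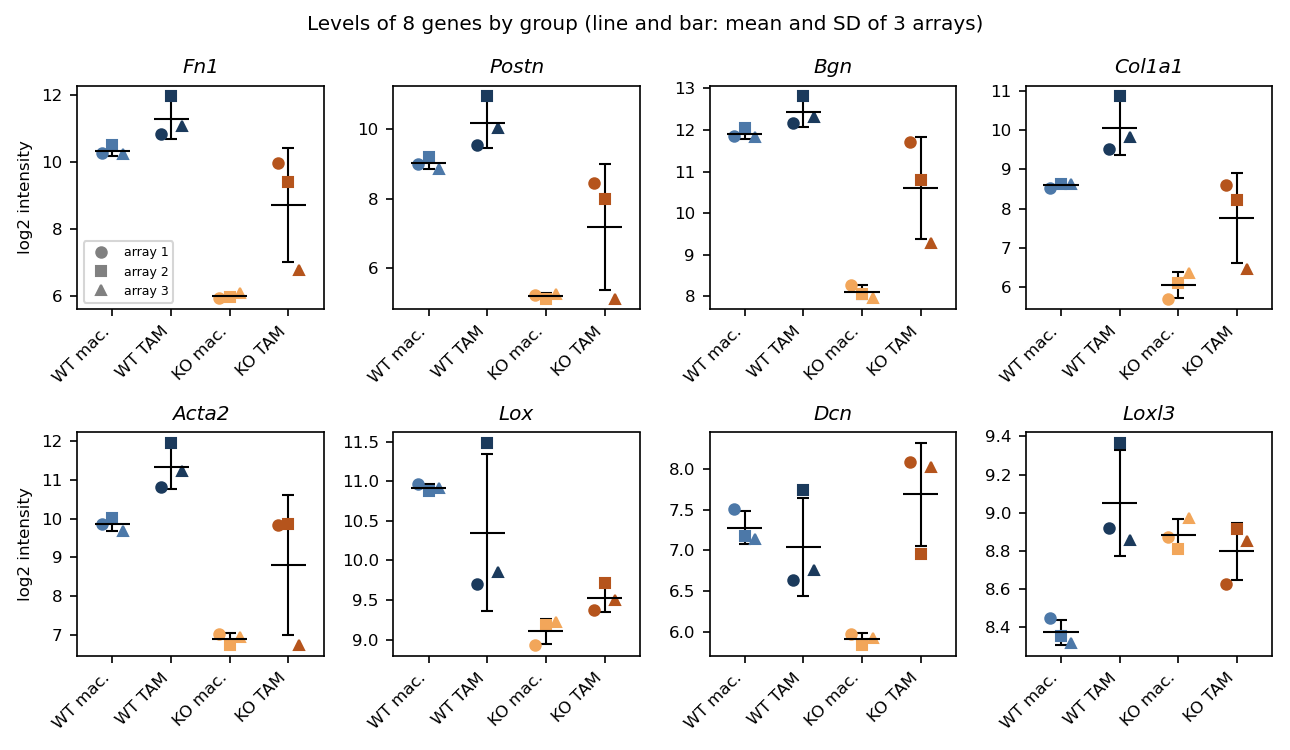
Log2 levels of 8 genes (Fn1, Postn, Bgn, Col1a1, Acta2, Lox, Dcn and Loxl3) with a point per array, and the mean and standard deviation of each group of 3. For Fn1 the KO macrophages sit at 5.93 to 6.09 and the KO TAMs spread from 6.76 to 9.96, while Loxl3 is lowest in WT macrophages.

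Of the basement membrane genes, Nid1, whose product nidogen links laminin to type IV collagen, differed the most between genotypes. Nid1 read 6.70, 6.83 and 6.64 in WT macrophages, 7.39, 9.22 and 7.75 in WT TAMs, 4.71, 5.07 and 4.76 in KO macrophages and 6.63, 6.25 and 5.50 in KO TAMs. The 4 groups did not overlap. It was 3.67-fold lower in KO macrophages (-1.88 ± 0.39, adjusted p = 0.0095) and 3.99-fold lower in KO TAMs (-1.99, 0.0061), calls kept without any single array, and a second probe set gave -1.30 and -1.74. Its rise of 1.40 in WT TAMs (0.0379) was lost without any macrophage array, the second WT TAM or the second KO TAM array (0.0517 to 0.114). The laminin chains Lamb1 and Lamc1 form the core of most laminins. Lamb1 fell 2.31-fold in KO macrophages (-1.21 ± 0.34, adjusted p = 0.0408) and 3.09-fold in KO TAMs (-1.63, 0.0091), and rose 1.17 in WT TAMs (0.046). The TAM fall was kept without any single array. The macrophage fall was lost without any macrophage array or the second KO TAM array (0.0531 to 0.135), and the WT TAM rise without any macrophage array, the second or the third WT TAM array or the second KO TAM array (0.0548 to 0.136).

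Lamc1 read 7.47, 7.41 and 7.35 in WT macrophages, 8.88, 8.77 and 8.69 in WT TAMs, 5.77, 5.66 and 6.25 in KO macrophages and 8.87, 7.21 and 6.54 in KO TAMs. Its WT TAM arrays were close together, and the first KO TAM array lay among them. Lamc1 rose 3.14-fold in KO TAMs over KO macrophages (1.65 ± 0.42, adjusted p = 0.0381) and was 2.87-fold lower in KO than in WT macrophages (-1.52, 0.0378). The rise was lost without any macrophage array, the first or the third WT TAM array or the second KO TAM array (0.0536 to 0.13), and the fall without any macrophage array or the first or the third WT TAM array (0.0508 to 0.12). Col18a1, the chain that releases endostatin, rose 0.53 ± 0.12 in WT TAMs (adjusted p = 0.0138, lost without the first WT macrophage array at 0.0657) and was 0.60 lower in KO than in WT TAMs (0.007). The type IV chains Col4a1 and Col4a2, which overlap head to head on chromosome 8, passed no test. Their KO against WT differences in TAMs were -0.54 and -0.50.

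Among the other collagens, Col12a1, a chain that sits on the surface of type I fibrils, differed the most. It read 7.33, 7.50 and 7.34 in WT macrophages, 8.12, 10.03 and 8.36 in WT TAMs, 4.72, 4.54 and 4.17 in KO macrophages and 7.53, 7.00 and 4.87 in KO TAMs. The third KO TAM array lay near KO macrophages while the first reached the WT macrophages. Col12a1 was 7.53-fold lower in KO macrophages (-2.91 ± 0.60, adjusted p = 0.0089). In TAMs it was 5.15-fold lower (-2.37, 0.0233), a call lost without the second WT TAM array (0.0725) or the third KO TAM array (0.0521). Col6a1, a chain of the beaded microfibrils, read 7.28, 7.47 and 7.34, then 7.78, 8.56 and 7.76, then 5.92, 6.03 and 6.25, then 6.97, 6.81 and 5.88 in the same order of groups. It fell 2.46-fold in KO macrophages (-1.30 ± 0.27, adjusted p = 0.0086) and 2.78-fold in KO TAMs (-1.48, 0.0039), both without any single array. A second, lower-reading Col6a1 probe set gave -0.17 and -0.11. Its partner chains Col6a2 and Col6a3 passed no test; in TAMs their differences were -0.52 (adjusted p = 0.0696) and -0.45 (0.0611). Col8a1, of the short-chain type VIII collagen, fell 3.13-fold in KO macrophages (-1.65 ± 0.44, 0.0332) and 4.12-fold in KO TAMs (-2.04, 0.0111). The first of these calls was lost without any WT macrophage array or the second or the third KO macrophage array (0.0665 to 0.12).

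The glycoproteins held the largest differences of the set. Fn1 encodes fibronectin, which binds integrins and collagen. Fn1 (chr1:71585473-71653280) read 10.28, 10.50 and 10.23 in WT macrophages, 10.83, 11.97 and 11.08 in WT TAMs, 5.93, 5.96 and 6.09 in KO macrophages and 9.96, 9.40 and 6.76 in KO TAMs. No KO array reached any WT array, the first KO TAM array came closest to them, and the third stayed near KO macrophages. Fn1 fell 20.3-fold in KO macrophages (-4.35 ± 0.61, adjusted p = 0.0012), a call kept without any single array. In KO TAMs it was 5.99-fold lower than in WT TAMs (-2.58, 0.0171, or 0.0567 without the second WT TAM array). The co-culture rise in KO was 6.57-fold (2.72, 0.0219), lost without any KO macrophage array or the first or second KO TAM array (0.0631 to 0.0759), and the WT difference of 0.95 did not pass (0.401).

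Postn, whose product periostin binds collagen and integrins and marks activated fibroblasts, read 9.0, 9.20 and 8.85 in WT macrophages, 9.54, 10.94 and 10.02 in WT TAMs, 5.23, 5.12 and 5.26 in KO macrophages and 8.44, 7.98 and 5.12 in KO TAMs. The third KO TAM array did not leave the KO macrophage range, whereas the other two lay far above it. Postn fell 14.1-fold in KO macrophages (-3.81 ± 0.65, adjusted p = 0.0034) and 7.91-fold in KO TAMs (-2.98, 0.0116), calls kept without any single array, and its co-culture differences of 1.15 in WT and 1.98 in KO did not pass (0.33 and 0.102). Sparc, a collagen-binding matricellular protein also called osteonectin, read 8.43, 8.54 and 8.29, then 8.66, 10.03 and 8.96, then 5.01, 5.27 and 5.10, then 8.18, 7.76 and 6.0 in the same order. The KO TAM arrays lay between KO and WT macrophages without touching either. Sparc fell 9.81-fold in KO macrophages (-3.29 ± 0.46, 0.0012) without any single array. It was 3.74-fold lower in KO TAMs (-1.90, 0.0196, or 0.0636 without the second WT TAM array). Its rise in KO TAMs of 2.19 (0.0165) was lost without any KO macrophage array or the first or second KO TAM array (0.0501 to 0.064).

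Tnc (tenascin C, an anti-adhesive protein of wound matrix) read 6.94, 7.26 and 6.95 in WT macrophages, 7.80, 9.25 and 8.35 in WT TAMs, 4.56, 4.68 and 5.35 in KO macrophages and 6.58, 6.35 and 4.42 in KO TAMs. All KO arrays lay below all WT arrays. Tnc fell 6.42-fold in KO against WT TAMs (-2.68 ± 0.50, adjusted p = 0.0045) without any single array, and 4.55-fold in macrophages (-2.19, 0.0148), a call lost without the second WT macrophage array (0.058) or the first (0.0605) or second (0.0564) KO macrophage array. Fbln2, a fibulin of elastic fibres and basement membranes, showed another order. It read 5.80, 6.02 and 6.01 in WT macrophages, 7.41, 8.32 and 7.44 in WT TAMs, 5.41, 5.45 and 5.69 in KO macrophages and 7.03, 6.39 and 5.86 in KO TAMs. Fbln2 rose 3.44-fold in WT TAMs (1.78 ± 0.28, adjusted p = 0.0016) and fell 2.45-fold in KO against WT TAMs (-1.30, 0.0101), both without any single array, while its KO against WT difference in macrophages of -0.43 did not pass.

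Thbs2 (thrombospondin 2, which limits vessel growth) was 3.86-fold lower in KO than in WT TAMs (-1.95 ± 0.51, adjusted p = 0.0283). Its second WT TAM array read 9.29 against 6.38 and 7.49 on the others, and the call was lost without the third WT TAM array (0.0586) or the second (0.0658) or the third (0.0981) KO TAM array. Mgp (matrix Gla protein, an inhibitor of calcification) was 1.66-fold lower in KO macrophages (-0.73 ± 0.13, adjusted p = 0.0045) without any single array, with levels of 6.63 to 6.98 in WT and 5.85 to 6.14 in KO macrophages that did not overlap. In TAMs its difference of -0.44 did not pass (0.0522). Elastin (Eln) stayed between 4.70 and 5.22 on all 12 arrays, and Fbln1 between 5.03 and 6.26, with no call for either in any comparison.

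Of the proteoglycans, biglycan and decorin are small leucine-rich proteins that bind collagen and TGF-beta. Bgn read 11.85, 12.04 and 11.84 in WT macrophages, 12.16, 12.82 and 12.31 in WT TAMs, 8.29, 8.06 and 7.97 in KO macrophages and 11.71, 10.80 and 9.29 in KO TAMs. The groups did not overlap, and the first KO TAM array came close to WT macrophages. Bgn fell 14.0-fold in KO macrophages (-3.80 ± 0.44, adjusted p = 0.0004) and rose 5.63-fold from KO macrophages to KO TAMs (2.49, 0.0063), both without any single array. It was 3.55-fold lower in KO than in WT TAMs (-1.83, 0.0177, or 0.0561 without the second WT TAM array). A second Bgn probe set of lower reading gave -0.77 and 0.54 for the first pair of differences, so the size of the change depended on the probe set and its direction did not.

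Decorin moved differently. Dcn read 7.51, 7.18 and 7.14 in WT macrophages, 6.64, 7.74 and 6.76 in WT TAMs, 5.98, 5.84 and 5.93 in KO macrophages and 8.08, 6.96 and 8.02 in KO TAMs. Its highest arrays were the first and the third KO TAM arrays, which in most of the set lay at opposite ends of their group. Dcn rose 3.42-fold in KO TAMs over KO macrophages (1.77 ± 0.31, adjusted p = 0.006) without any single array and with the 6 KO arrays alone. It was 2.57-fold lower in KO than in WT macrophages (-1.36, 0.0146), a call lost without the first WT macrophage array (0.0656) or the second KO macrophage array (0.0534). In TAMs its difference was 0.64 in favour of KO (0.219), a difference that reached 0.99 without the second WT TAM array and 1.01 without the second KO TAM array and was then called. Lum, the neighbour of Dcn on chromosome 10 (47337 bases away) and the gene for lumican, read 2.86 to 3.38 on all arrays, close to the bottom of the table. Vcan (versican, a large hyaluronan-binding proteoglycan) read 4.34 to 7.46 and passed no test, with a difference of -0.99 in TAMs (0.206).

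Among the genes that process collagen, Lox encodes lysyl oxidase, which starts the crosslinks. Lox read 10.97, 10.88 and 10.91 in WT macrophages, 9.70, 11.49 and 9.86 in WT TAMs, 8.93, 9.18 and 9.22 in KO macrophages and 9.37, 9.71 and 9.49 in KO TAMs. Of the WT TAM arrays 2 lay below every WT macrophage array and the second above. Lox fell 3.51-fold in KO macrophages (-1.81 ± 0.35, adjusted p = 0.006) without any single array, and its KO TAM difference of -0.82 did not pass (0.162). The WT co-culture difference of -0.57 (0.367) became -1.14 and was called without the second WT TAM array. Loxl1, a lysyl oxidase-like enzyme that acts on elastin, rose 1.15 ± 0.27 in WT TAMs (adjusted p = 0.0152), and was 1.04 lower in KO macrophages (0.0259) and 1.40 lower in KO TAMs (0.0052). The last of these was kept without any single array. The rise was lost without the first (0.0645) or the third (0.0642) WT macrophage array, and the macrophage fall without any macrophage array (0.051 to 0.103).

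Loxl3, another member of the family, ran against the rest in macrophages. It read 8.45, 8.36 and 8.31 in WT macrophages, 8.92, 9.37 and 8.86 in WT TAMs, 8.87, 8.81 and 8.97 in KO macrophages and 8.63, 8.91 and 8.85 in KO TAMs. WT macrophages were the low group, and the other 3 overlapped. Loxl3 rose 0.68 ± 0.13 in WT TAMs (adjusted p = 0.0055) without any single array, and was 0.51 higher in KO than in WT macrophages (0.0254), a call lost without any macrophage array (0.0542 to 0.0908). Serpinh1, the collagen chaperone HSP47, fell 2.73-fold in KO macrophages (-1.45 ± 0.39, adjusted p = 0.0322) and 3.41-fold in KO TAMs (-1.77, 0.0117). The macrophage call was lost without any macrophage array (0.0728 to 0.113), and the TAM call was not lost. Pcolce, which enhances removal of the procollagen C-propeptide, was 0.72 ± 0.19 lower in KO than in WT TAMs (0.0274), lost without the second (0.106) or the third (0.0611) KO TAM array.

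The secreted regulators fell in both genotype comparisons, all 4 of 4. Igfbp7, an insulin-like growth factor binding protein found in stroma and vessels, read 9.72, 9.80 and 9.51 in WT macrophages, 9.93, 11.29 and 10.18 in WT TAMs, 6.16, 5.68 and 5.96 in KO macrophages and 9.33, 8.76 and 6.80 in KO TAMs. Each KO array was below each WT array. Igfbp7 fell 13.3-fold in KO macrophages (-3.74 ± 0.52, adjusted p = 0.0011) without any single array. In TAMs it was 4.50-fold lower (-2.17, 0.0179, or 0.0598 without the second WT TAM array), and its rise in KO TAMs of 2.36 (0.0197) was lost without any KO macrophage array or the first or second KO TAM array (0.056 to 0.0788). Igfbp4, of the same family, spread less among arrays. It read 8.26, 8.39 and 8.40, then 9.03, 8.82 and 9.07, then 7.12, 6.99 and 6.98, then 8.27, 8.16 and 7.48 in the same order of groups. Igfbp4 was called in all 4 comparisons: -1.32 ± 0.17 in KO macrophages (adjusted p = 0.00073), -1.0 in KO TAMs (0.0026), 0.94 with co-culture in KO (0.0072) and 0.62 in WT (0.0337). The last was lost without any WT macrophage array or the first or the third WT TAM array (0.0812 to 0.119), and the others were kept without any single array.

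Cxcl12, the chemokine that holds CXCR4-bearing cells in bone marrow, read 7.31, 7.78 and 7.47 in WT macrophages, 7.60, 9.36 and 7.98 in WT TAMs, 6.03, 5.42 and 5.92 in KO macrophages and 6.80, 6.35 and 5.95 in KO TAMs. All KO arrays were below all WT arrays. Cxcl12 fell 3.85-fold in KO against WT TAMs (-1.95 ± 0.37, adjusted p = 0.0055) without any single array, and 3.32-fold in macrophages (-1.73, 0.0112), lost without the second WT macrophage array (0.0507) or the second KO macrophage array (0.052). Fstl1, the follistatin-like protein that binds TGF-beta family ligands, fell 4.06-fold in macrophages (-2.02 ± 0.47, 0.0166) and 3.47-fold in TAMs (-1.80, 0.027). Its macrophage call was lost without the second or the third array of either macrophage group (0.0506 to 0.0691), and its TAM call without the second (0.0862) or the third (0.0535) WT TAM array or the second (0.0583) or the third (0.0761) KO TAM array.

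Of the mesenchymal markers, Acta2 encodes smooth muscle alpha-actin, the marker of myofibroblasts. Acta2 read 9.87, 10.02 and 9.68 in WT macrophages, 10.82, 11.96 and 11.22 in WT TAMs, 7.03, 6.74 and 6.94 in KO macrophages and 9.83, 9.87 and 6.73 in KO TAMs. The first and second KO TAM arrays were within the WT macrophage range, and the third was at the bottom of the KO macrophages. Acta2 fell 7.73-fold in KO macrophages (-2.95 ± 0.64, adjusted p = 0.0118) without any single array. In TAMs it was 5.75-fold lower (-2.52, 0.0236), lost without the second (0.0743) or the third (0.0595) WT TAM array. Tagln, an actin-binding protein of contractile cells, was 4.18-fold lower in KO than in WT TAMs (-2.07 ± 0.50, 0.0182), lost without the second WT TAM array (0.0519) or the third KO TAM array (0.0621). Of the platelet-derived growth factor receptors of fibroblasts and pericytes, Pdgfrb fell 2.43-fold in TAMs (-1.28 ± 0.33, 0.0253), lost without the second (0.0844) or the third (0.0576) KO TAM array. Pdgfra, with -1.32 in macrophages (0.0642) and -1.37 in TAMs (0.0524), did not pass. Thy1, the surface marker CD90, read 4.94 to 5.53 on all arrays and was not called.

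The spread inside the TAM groups reached most of the set. The standard deviation among the WT TAM arrays was above the all-gene median in 39 of the 43 genes (not in Lamc1, Eln, Lum and Igfbp4), and among the KO TAM arrays in 37. On the second WT TAM array a gene of the set was, at the median, 1.06 above the mean of the other two WT TAM arrays, and 24 of the 43 genes were over 1 above it, against 1.33% of all genes. Thbs2 (2.36 above), Vcan (1.99) and Col12a1 (1.79) deviated the most, while Lamc1 and Igfbp4 did not lie higher there. Among KO TAMs the first array was above the third in 37 genes (not in Fbln1, Lum, Lox, Loxl3, Pdgfrb and Thy1), by 0.85 at the median of the set, and over 1 above it in 20 genes, against 2.08% of all genes. Postn (3.32), Fn1 (3.20) and Acta2 (3.09) led these. The first KO TAM array reached at least the lowest WT macrophage array in 26 of the 43 genes, the second in 12 and the third in 9. Without the second WT TAM and the first KO TAM arrays together, 12 genes were called for co-culture in WT (11 higher, 1 lower) and 11 in KO (all higher). For KO against WT, 33 were then called in macrophages (1 higher, 32 lower) and 29 in TAMs (all lower).

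A list of 24 further genes of collagen biosynthesis holds modifying enzymes, chaperones, export factors and regulators. With co-culture 12 rose and 2 fell in WT and 4 rose and 1 fell in KO, and between genotypes 1 rose and 8 fell in macrophages and 1 rose and 14 fell in TAMs. The list's median differences were 0.51, 0.32, -0.28 and -0.38 in that order. Over all genes 11.5%, 6.53%, 11.3% and 12.2% were called in these comparisons, in the same order. Leaving out 1 array at a time, WT co-culture had 7 calls (without the first WT macrophage array) to 15 (without the first KO TAM array). Those of P3h1, P3h2, P3h3, P3h4, Ppib, Fkbp14 and Bmp1 were lost without the first WT macrophage array (0.0533 to 0.162), and 6 rises and 1 fall were kept whichever array was left out. KO co-culture had 3 calls (without the second or the third KO macrophage array) to 8 (without the third KO TAM array), with Crtap, P4ha1 and Plod1 kept. The genotype comparison had 4 (without the second WT macrophage array) to 11 (without the first KO TAM array) in macrophages, with 4 kept, and 7 (without the third KO TAM array) to 14 in TAMs, with 7 kept, all of these lower in KO. The prolyl 4-hydroxylase subunits P4ha1 and P4ha2, which make collagen stable, rose 0.95 ± 0.12 (adjusted p = 0.00046) and 1.43 ± 0.17 (0.00033) in WT TAMs. P4ha1 differed by 0.01 between KO and WT macrophages (0.97) and rose 0.74 with co-culture in KO (0.004). A further subunit, P4ha3, was 4.42-fold lower in KO macrophages (-2.15 ± 0.35, 0.0025) and 5.01-fold lower in KO TAMs (-2.32, 0.0014). Bmp1, which cleaves the procollagen C-propeptide, was 1.55 ± 0.25 lower in KO than in WT TAMs (0.0023) and 1.12 lower in macrophages (0.0145), the latter lost without the second WT macrophage (0.0595) or the third KO macrophage array (0.056). Plod1, a lysyl hydroxylase, fell 0.55 ± 0.09 in KO macrophages (0.0029) and rose 0.59 in KO TAMs over them (0.0032). Tmem38b, an endoplasmic reticulum cation channel, went the other way in WT TAMs, with a fall of 1.33 ± 0.16 (0.0003).

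A further 31 collagen chains had median differences of 0.04 and 0.03 with co-culture in WT and KO, and 0.03 between genotypes in macrophages. In these 3 comparisons 0 were called by limma, with 3 higher (WT co-culture), 2 higher (KO co-culture), and 1 higher and 1 lower (KO against WT macrophages) at an unadjusted p under 0.05. Over all genes 23.5%, 20.1% and 24.7% reached that unadjusted p. In TAMs, where 12.2% of all genes were called, Col6a5 and Col20a1 were higher and Col11a1 lower in KO. These calls were lost without any of 10, 11 and 7 arrays. Of 13 other basement membrane genes, 1 rose and 1 fell in KO against WT macrophages (median -0.17, with 11.3% of all genes called). In TAMs 3 fell (median -0.31, with 12.2% of all genes called). With co-culture 1 rose in WT, where 11.5% of all genes were called. This was Hspg2, lost without any macrophage array, the second WT TAM or the second KO TAM array (0.0595 to 0.137). In KO, where limma called 6.53% of all genes, it called 0 of the list, also 0 at an unadjusted p under 0.05. Without the third KO TAM array 1 of the TAM calls was left, and whichever array was left out Agrn in macrophages and Hspg2 in TAMs kept theirs. Hspg2, the proteoglycan perlecan, was 1.30 ± 0.27 lower in KO than in WT TAMs (adjusted p = 0.0092, or 0.0937 with the TAM arrays alone). Agrin (Agrn) was 0.65 ± 0.13 lower in KO than in WT macrophages (0.0076).

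Of 34 other matrix proteins 7 fell in KO against WT macrophages (median -0.07, with 11.3% of all genes called). In TAMs 5 fell and 1 rose (median -0.08, with 12.2% of all genes called). With co-culture 2 rose and 1 fell in either genotype, where 11.5% (WT) and 6.53% (KO) of all genes were called. The WT calls, of Mfap5, Emilin2 and Ecm1, were all lost without any WT macrophage array or the third WT TAM array (0.054 to 0.118), and without the third KO TAM array there were 6. Of the KO calls that of Ecm1 alone was kept whichever array was left out, and without the second WT TAM array there were 5. In the genotype comparison 5 to 11 were called in macrophages and 3 to 9 in TAMs with 1 array left out, the highest counts without the second WT TAM and the first KO TAM array and the lowest without the first WT macrophage or second KO macrophage array and without the second or the third KO TAM array. Calls of 5 and 2 genes were kept throughout. Thbs1, thrombospondin 1, an activator of latent TGF-beta, was 9.44-fold lower in KO macrophages (-3.24 ± 0.54, adjusted p = 0.0029) and rose 6.91-fold with co-culture in KO (2.79, 0.0111, or 0.0517 without the second KO macrophage array and 0.0558 with the KO arrays alone). Ecm1 was 4.47-fold lower in KO macrophages (-2.16 ± 0.37, 0.0035) and rose 4.62-fold with co-culture there (2.21, 0.0051, or 0.0558 with the KO arrays alone). TGF-beta signalling is the main inducer of matrix synthesis. Of 22 genes of this pathway, 7 fell in KO against WT TAMs (median -0.23, with 12.2% of all genes called). In macrophages 4 fell and 2 rose (median -0.11, with 11.3% of all genes called). With co-culture 5 rose and 1 fell in WT (11.5% of all genes called), and 1 rose and 1 fell in KO (6.53%). Leaving out 1 array at a time gave 3 calls (without the third KO TAM array) to 11 (without the first) in KO against WT TAMs, 4 to 9 (without the second WT TAM array) in macrophages, 3 (without the first WT macrophage array) to 9 for WT co-culture and 2 to 5 (without the second WT TAM array) for KO co-culture. The ligands Tgfb2 (-1.95 ± 0.33, 0.0029) and Tgfb3 (-1.90 ± 0.35, 0.0041, or 0.0615 with the TAM arrays alone) were lower in KO than in WT TAMs. Ccn2, a TGF-beta target, was lower too (-1.98 ± 0.46, 0.0155, or 0.0533 without the third KO TAM array and 0.123 with the TAM arrays alone).

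Of 23 matrix receptors 5 fell in KO against WT macrophages (median -0.33, with 11.3% of all genes called). In TAMs 6 fell and 1 rose (median -0.30, with 12.2% of all genes called). With co-culture 2 rose and 2 fell in WT (11.5% of all genes called) and 1 rose in KO (6.53%). The WT rises, of Ddr2 and Itga11, were lost without any WT macrophage array (0.0683 to 0.104), and the KO rise, of Dag1, without any of 9 arrays (0.0559 to 0.127), while the falls of Itga8 and Itga9 in WT were kept whichever array was left out. The genotype counts ran from 2 (without the third WT macrophage or the first or the third KO macrophage array) to 8 (without the second WT TAM array) in macrophages, and from 4 (without the second or the third KO TAM array) to 13 (without the first) in TAMs. Ddr2, a collagen receptor kinase of fibroblasts, was 4.09-fold lower in macrophages (-2.03 ± 0.34, 0.0028) and 4.39-fold lower in TAMs (-2.14, 0.0019). Itga11, the collagen-binding integrin alpha chain of fibroblasts, was 5.36-fold lower in TAMs (-2.42 ± 0.44, 0.0043, or 0.0684 with the TAM arrays alone). Itga5, a chain of the fibronectin receptor that macrophages also carry, was 1.80-fold lower in macrophages (-0.85 ± 0.10, 0.00059).

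Markers of fibroblasts followed the set in their summed intensity and not in their median level. The summed intensity of 18 fibroblast markers was 1303, 1452 and 1295 in WT macrophages, 2132, 3588 and 2246 in WT TAMs, 612.5, 605.6 and 599.3 in KO macrophages and 1466, 988.6 and 659.8 in KO TAMs. It was thus highest on the second WT TAM array and graded over the KO TAM arrays, as the sum of the 43 genes was. The median level of the 18 was 4.69, 4.73 and 4.92 in WT macrophages, 4.76, 5.05 and 4.68 in WT TAMs, 4.71, 4.63 and 4.57 in KO macrophages and 4.69, 4.71 and 4.83 in KO TAMs. By the median the WT groups overlapped, and the third KO TAM array was the highest of its group. Of the 18, which include Ddr2, 4 fell in KO against WT macrophages (Cdh11, Prrx1, Ddr2 and Snai2), where 11.3% of all genes were called. In TAMs 5 fell, where 12.2% of all genes were called. The list's median differences were -0.12 and -0.20. With co-culture 3 rose in WT and 2 in KO, where 11.5% and 6.53% of all genes were called. Of the WT rises that of Pdpn was kept whichever array was left out, while those of Ddr2 and Snai2 were lost without any WT macrophage array or the second or the third WT TAM array (0.0603 to 0.111). Both KO rises, of Cdh11 and Snai2, were lost without the first or second KO macrophage array (0.0677 to 0.143). Snai2, a transcription factor of mesenchymal cells, was 2.50 lower in KO macrophages (adjusted p = 0.00073). Cdh11, the cadherin of fibroblasts and osteoblasts, read 8.32, 8.57 and 8.35, then 9.25, 10.10 and 9.12, then 6.14, 5.84 and 6.04, then 8.62, 7.98 and 6.35. Its first KO TAM array lay just above the WT macrophages and the third just above KO macrophages. Cdh11 fell 5.31-fold in KO macrophages (-2.41 ± 0.44, 0.0049). Other markers of the list read low on every array, with Twist2 at 2.95 to 4.15, Tcf21 at 4.10 to 4.62 and Dpt at 4.29 to 4.85. The part of fibroblasts in the results was not tested.

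**Figure D5:**
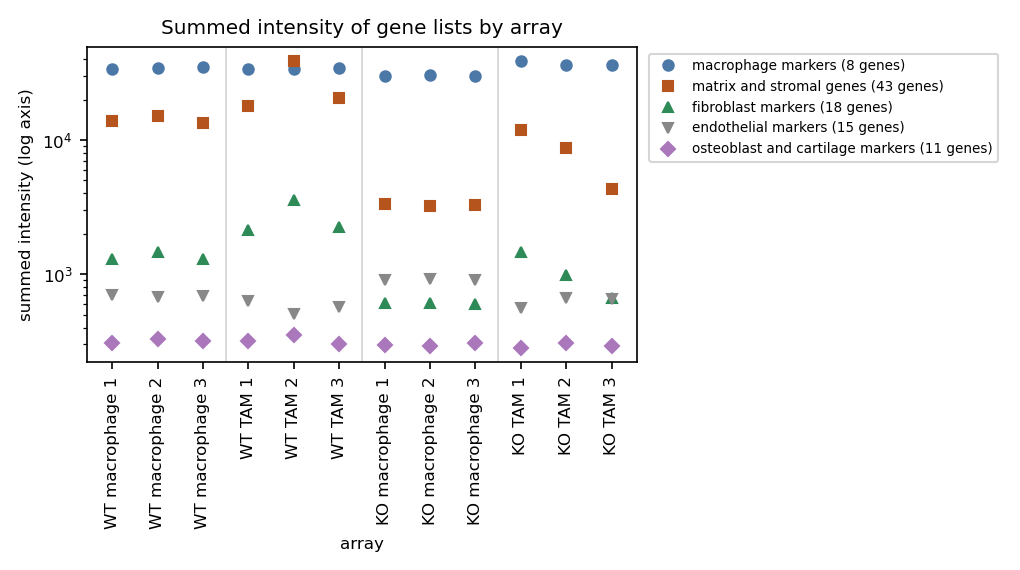
Summed intensity per array, on a log axis, for 8 macrophage markers, the 43 genes of the set, 18 fibroblast, 15 endothelial and 11 osteoblast and cartilage markers. The set and the fibroblast markers are both highest on the second WT TAM array and lowest on the KO macrophage arrays, while the macrophage markers stay between 29990 and 38600.

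Lists for other cell types differed in how they ran over the arrays. The 8 macrophage markers summed to at least 33780 on every WT array, at most 30280 on KO macrophage arrays and at least 36300 on KO TAM arrays. Among them Adgre1, a macrophage adhesion receptor, read 12.16 to 12.83, Lyz2 12.82 to 13.20 and Csf1r 10.76 to 12.18 on all arrays. In KO against WT macrophages limma called 1 of the 8 higher and 1 lower, with 11.3% of all genes called. In TAMs 1 was higher and 0 lower in KO (12.2%). With co-culture 2 rose and 2 fell in WT (list median -0.01, with 11.5% of all genes called). In KO 4 rose and 1 fell with co-culture (list median 0.51, with 6.53% of all genes called). These levels show macrophage transcripts on every array, and the purity of the cultures was not measured. The 15 endothelial markers summed to 676.5 to 699.8, 502.8 to 634.6, 901.5 to 929 and 559.3 to 667.6 in the same order of groups, highest in KO macrophages. A sum gives most weight to the genes that read highest. In KO against WT macrophages limma called 0 of the 15, with a list median of 0.05, where 11.3% of all genes were called. The 13 smooth muscle and pericyte markers summed to 479.8, 538.6 and 492.8 in WT macrophages, 521.7, 993 and 566.7 in WT TAMs, 442.6, 446.8 and 423.4 in KO macrophages and 474.4, 527.4 and 441.4 in KO TAMs. As in the set, the second WT TAM array was the highest, and the group means ran from WT TAMs over WT macrophages and KO TAMs to KO macrophages, but the KO TAM arrays were not graded from the first to the third. The 11 osteoblast and cartilage markers (283.4 to 351.2 over all arrays), 6 adipocyte markers (113.2 to 141.4) and 7 epithelial markers (203.5 to 224.9) varied little. The 13 plasma cell and myeloma markers summed to 5464 to 5703 in WT macrophages and 5511 to 5648 in WT TAMs. In KO they summed to 6399 to 6522 in macrophages and 6547 to 7587 in TAMs. The WT groups overlapped, while every KO TAM sum was above every KO macrophage sum. With co-culture limma called 0 of the 13 higher in either genotype, and 3 lower in WT and 1 in KO. Over all genes 11.5% and 6.53% were called. Their part in the results was not tested.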

How the data were processed

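RNA from 12 samples was labelled for one-colour Affymetrix arrays, per the labels' protocols (GeneChip WT PLUS). The authors deposited a table of linear intensity values for 41345 probe sets, summarised with RMA per the submitters' processing notes. No source used here names the genome build. The number of arrays, not a read depth, limits the precision. No column was left unused (0).

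Probe sets with 1 gene symbol (23521) were kept, of which 23328 matched RefSeq on GRCm38.p6 by Entrez number with 0 symbols changed. The probe set with the highest mean stood for its gene, with no filter on level. Values were log2-transformed and fitted with limma 3.58.1 (R 4.3.3): lmFit and eBayes over all 4 groups, no block, Benjamini-Hochberg over 22180 genes. The fit was tested on simulated data. RefSeq promoter windows were searched on both strands.

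All 43 measured genes are named. From other lists, at most 4 called genes with the largest differences per list and comparison, and marker levels, are given, with a few chosen after their values were seen. The genes and lists were chosen with earlier results of these data known. Alternatives were a second quantile normalization, median centring, a filter at the median level, log2(intensity + 16), the mean of probe sets, array weights, trend and robust eBayes, only the groups compared, a replicate block, and arrays left out.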

Additional observations from a re-analysis of the deposited data

Results flagged for a closer look

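Fcgr1, the high-affinity IgG receptor CD64 and a gene of the macrophage marker list, had a co-culture difference that differed between genotypes by 1.16 (log2, SE 0.12, adjusted p = 0.0037 in limma's interaction test). Its 3 KO macrophage arrays read at most 10.26 and its KO TAM arrays at least 11.48, while the WT macrophages reached 11.32 and the WT TAMs lay between 11.48 and 11.50. The co-culture rise was 1.40 in KO (adjusted p = 9.2e-06), and the WT difference of 0.25 did not pass (0.087). No collagen, matrix or stromal gene met the conditions for this part.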

How the results depend on the processing

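Of 4662 gene-by-setting values over 22 settings, 0 called differences reversed, 229 lost their call, 157 gained a call, and 83 changed sign without a call on either side. Among the 43 genes, trend and robust eBayes gave 6 calls for WT co-culture and 5 for KO co-culture, array weights gave 18 for KO co-culture and 4 for the interaction, and fits with only the groups compared gave 1 for KO co-culture and 0 for KO against WT TAMs. Leaving out the second WT TAM and first KO TAM arrays gave 4 for the interaction. Over all genes, array weights gave 3976 (WT co-culture), 2705 (KO co-culture), 4923 (KO against WT macrophages), 4725 (KO against WT TAMs) and 761 (interaction); only the groups compared gave 505 (KO co-culture), 4716 (macrophages) and 638 (TAMs); and leaving out both arrays gave 4049, 4558 and 4480 for WT co-culture, macrophages and TAMs, and 1496 for the interaction. For the interaction the filter at the median level gave 100, log2(intensity + 16) 105, trend and robust eBayes 99 and the replicate block 26. Leaving out 1 array at a time gave 2 to 19 genes of the set and 1475 to 3393 of all genes for WT co-culture, 3 to 18 and 611 to 1939 for KO co-culture, 14 to 32 and 1403 to 3455 for KO against WT macrophages, 20 to 31 and 1749 to 3710 for KO against WT TAMs, and 0 to 2 and 14 to 444 for the interaction. With the replicate number as a block the set had 13, 9, 25, 30 and 0 calls. Same-numbered WT and KO TAM arrays correlated in their deviations at 0.271, 0.247 and 0.0331, and differently numbered ones at -0.284 to 0.0705. Same-numbered arrays of the other pairs of groups correlated at -0.0557 to 0.0199. Whether a number stands for a shared batch of the TAM arrays was not tested. Apart from array and group removal, the causes of these changes were not tested. With 3 arrays a group, the size of difference that passed depended on each gene's spread. Between KO and WT TAMs, -0.45 for Col6a3 did not pass, and neither did the larger -1.37 of Pdgfra.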

Other observations

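Of the 15 endothelial markers 2 rose and 1 fell with co-culture in WT and 1 fell in KO, with list medians of 0.01 in both. Over all genes 11.5% and 6.53% were called. Pecam1 (CD31, also carried by myeloid cells) fell 5.22-fold in WT TAMs (-2.38 ± 0.31, limma adjusted p = 0.0006) and 2.63-fold in KO TAMs (-1.39, 0.0216, lost without any KO macrophage array at 0.0705 to 0.0768), and was 3.28-fold higher in KO than in WT TAMs (1.71, 0.0043, or 0.0687 with the TAM arrays alone). Kdr, the VEGF receptor 2, rose 3.99-fold in WT TAMs (SE 0.34 on the log2 scale, 0.0029), and in KO its difference of 0.70 did not pass (0.286). The interaction passed for neither gene (0.508 for Pecam1 and 0.398 for Kdr).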
